A study of Homo sapiens with 4 samples.

Results

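The genes described here encode the subunits of the mitochondrial respiratory chain and of ATP synthase, measured in HuH7, a human hepatocellular carcinoma cell line. Members were the genes whose single symbol in the array annotation began with NDUFA, NDUFB, NDUFC, NDUFS, NDUFV, UQCR, COX4I, COX5, COX6, COX7, COX8 or ATP5, together with CYC1 and the SDH subunit genes, and without the NDUFAF assembly factors. The rule gave 83 of 19775 genes. Of these, 78 encode proteins: 33 in complex I, 3 in complex II, 7 in complex III, 17 in complex IV and 18 in complex V, which is ATP synthase. The other 5 are pseudogenes or non-coding RNAs that carry such a symbol.

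The study compared parental HuH7 cells (F0, 2 arrays) with cells taken from tumors after 6 (F6, 1 array) and 12 (F12, 1 array) rounds of treatment and engraftment. HuH7 tumors grew in NOD/SCID mice that received JNJ-28841072, an inhibitor of VEGF receptors and aurora kinases, by intraperitoneal injection, and tumors that resisted were cut up and engrafted again. The phenotype label of F6 and F12 calls them a subclone resistant to sorafenib, so the labels name 2 drugs. All 4 samples are HuH7 RNA extracted from tissue specimens, no array came from tumors passed without the drug, and the age of the mice and whether the F0 samples were separate tumors are not given, so any p-value reflects how far these particular samples scatter, possibly for technical reasons. The drug and the repeated engraftment cannot be told apart.

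Complex I oxidizes NADH and complex II oxidizes succinate. Both hand electrons to ubiquinone, complex III passes them to cytochrome c, and complex IV passes them to oxygen. Complexes I, III and IV pump protons, and ATP synthase uses the resulting gradient to make ATP. Most subunits are encoded in the nucleus and a small core is encoded in mitochondrial DNA (mtDNA), so each complex except complex II needs transcripts from both genomes. Hepatocytes are rich in mitochondria, and many liver cancer cells draw on both respiration and glycolysis.

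Values are log2 signals, so a difference of 1 is 2-fold, and a signal under 6 is called near background. Members' values are compared across arrays and not between genes, because probesets differ in brightness. The 2 F0 arrays were far apart. F0 (2) was at least 2-fold lower than F0 (1) for 29 members (34.9%, against 34.1% of all genes) and at least 2-fold higher for 15 (18.1%, against 25.0%). The SD of that difference was 1.6 over members and 2.01 over all genes. F12 was much nearer F0 (2), with an SD of the difference of 0.47 over members and 0.58 over all genes. A count is therefore led by members that read lower or higher than both F0 arrays. Array medians over all genes lay between 5.64 and 5.83. In a bulk sample fewer cells of a type and less RNA per cell cannot be told apart. Of 10 hepatocyte markers 9 were measured, all above background on at least 1 array, with summed signals of 89.2 on F0 (1), 104.6 on F0 (2), 101.3 on F6 and 106.2 on F12. Albumin (ALB) had 10.18, 13.75, 12.41 and 13.58, and values below are in that order of arrays. The markers did not move together. In 3 of the 9, TTR (12.26, 10.49, 12.17 and 11.77), SERPINA1 (12.43, 11.20, 13.82 and 12.03) and APOA1, F0 (2) was lower than F0 (1). At 6 or more on any array were, of the genes measured, 1 of 5 endothelial, 1 of 6 fibroblast, 0 of 5 macrophage, 2 of 6 skeletal muscle, 2 of 2 erythroid and 1 of 4 adipocyte markers.

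The promoters of members on which the results turn are shown first, from RefSeq on build GRCh38.p14. They are the 250 bases before the annotated start of 5 of the 6 genes that read at least 2-fold below both F0 arrays in F12, and of SDHD, whose values went another way. Capitals mark matches, on either strand, to the motif of NRF1 (GCGCA and GCGC with 1 base between), a regulator of nuclear genes for mitochondrial proteins, the core of ETS factors such as GABP (CCGGAAG), YY1 (AAGATGGCG) or SP1 (GGGCGG). Matches of different motifs were counted separately where they overlap.
ATP5MC1 promoter, chr17:48892537-48892786, plus strand: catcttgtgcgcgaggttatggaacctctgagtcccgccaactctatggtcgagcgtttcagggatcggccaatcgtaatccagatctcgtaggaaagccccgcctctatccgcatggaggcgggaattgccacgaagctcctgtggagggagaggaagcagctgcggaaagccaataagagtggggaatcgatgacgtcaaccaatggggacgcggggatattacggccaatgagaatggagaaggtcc
UQCRQ promoter, chr5:132866392-132866641, plus strand: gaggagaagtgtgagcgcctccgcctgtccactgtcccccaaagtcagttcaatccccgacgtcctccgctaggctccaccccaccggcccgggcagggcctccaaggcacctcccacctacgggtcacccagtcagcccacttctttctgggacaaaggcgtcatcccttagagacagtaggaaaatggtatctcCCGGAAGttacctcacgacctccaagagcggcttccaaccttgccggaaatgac
NDUFA2 promoter, chr5:140647631-140647880, minus strand: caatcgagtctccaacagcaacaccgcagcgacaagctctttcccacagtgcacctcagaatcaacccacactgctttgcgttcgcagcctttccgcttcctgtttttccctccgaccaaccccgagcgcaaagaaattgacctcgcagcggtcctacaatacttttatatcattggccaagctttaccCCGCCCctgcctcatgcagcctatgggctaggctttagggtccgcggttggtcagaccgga
NDUFA3 promoter, chr19:54102605-54102854, plus strand: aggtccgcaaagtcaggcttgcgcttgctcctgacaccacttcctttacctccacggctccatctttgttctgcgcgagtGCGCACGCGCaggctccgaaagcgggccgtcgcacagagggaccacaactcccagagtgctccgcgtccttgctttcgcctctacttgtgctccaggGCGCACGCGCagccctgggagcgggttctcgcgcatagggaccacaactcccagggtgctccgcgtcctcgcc
ATP5ME promoter, chr4:674277-674526, minus strand: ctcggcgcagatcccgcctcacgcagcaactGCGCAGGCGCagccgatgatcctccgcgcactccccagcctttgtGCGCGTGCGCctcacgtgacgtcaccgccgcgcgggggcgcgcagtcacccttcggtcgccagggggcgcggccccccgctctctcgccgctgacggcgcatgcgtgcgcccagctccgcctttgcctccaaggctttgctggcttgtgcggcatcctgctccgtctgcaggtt
SDHD promoter, chr11:112086623-112086872, plus strand: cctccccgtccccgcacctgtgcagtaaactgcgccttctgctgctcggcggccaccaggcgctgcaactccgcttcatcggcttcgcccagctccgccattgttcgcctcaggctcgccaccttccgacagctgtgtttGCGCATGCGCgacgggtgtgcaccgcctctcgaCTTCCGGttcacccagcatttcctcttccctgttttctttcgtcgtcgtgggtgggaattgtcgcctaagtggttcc

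The 6 windows had no match in common. NDUFA3 held 2 NRF1 matches, beginning 170 and 73 bases before the start, and ATP5ME held 2, beginning 219 and 174 bases before it. SDHD held 1 NRF1 match 110 bases and 1 ETS match 77 bases before its start. UQCRQ held 1 ETS match 54 bases before the start, NDUFA2 held 1 SP1 match 61 bases before it, and ATP5MC1 held none of these letters. A window was found for 69 members, 66 of them protein-coding. The NRF1 motif was present in 14 of those 66 windows (21.2%), against 7.8% of 15382 genes with a window and 13.5% of the 2005 with a mean signal of 9 or more. The ETS motif was present in 22.7% of member windows, 12.0% of all and 20.3% of those with a mean of 9 or more. The YY1 motif was present in 1.5% of member windows, 0.8% of all and 1.3% of those with a mean of 9 or more. For SP1 the shares were 56.1%, 56.3% and 69.4%, so the members were close to all genes and below the brighter ones. A match describes the letters in the window and not a bound site.

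The comparison of F12 with F0 asks how these genes read after 12 rounds. Most of them were slightly lower on F12 than on either parental array. F12 was below both F0 arrays for 51 of 83 members (61.4%), against 30.4% of all genes and 35.9% of the 2368 genes with a mean of 9 or more, and above both for 5 (6.0%), against 19.5% of all genes. The distance below the lower F0 array was small, with a median of 0.40 over those 51 members and a largest value of 1.71. Its median was 0.20 over all genes below both and 0.41 over those with a mean of 9 or more, close to the members. At least 2-fold below both were 6 members (7.2%), against 1.37% of all genes and 4.48% of those with a mean of 9 or more, and 0 were at least 2-fold above both (1.93% of all genes). Of the 65 members with a mean of 9 or more, 45 (69.2%) were below both and 6 (9.2%) at least 2-fold below both. The median difference from the F0 mean was -0.65 over members and -0.24 over all genes. Against F0 (1) alone it was -0.99 (all genes -0.54) and against F0 (2) alone -0.32 (all genes 0.03).

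The number of low members depended on the scaling. With arrays centred on the genes with a mean of 9 or more, 41 members (49.4%) were below both F0 arrays, against 15.8% of all genes. In that setting ATP5MC1, NDUFA2 and UQCRQ remained at least 2-fold below both, in place of the 6. The share of all genes 2-fold below both is not given there, so the smaller count has no background beside it. Against F0 (2) alone, the array F12 resembled, 67 members (80.7%) were lower, against 45.9% of all genes and 59.3% of those with a mean of 9 or more. Against F0 (1) alone 62 members (74.7%) were lower, against 64.9% and 54.1%, a smaller excess over all genes. Among the 65 members with a mean of 9 or more, 57 (87.7%) were lower than F0 (2). At least 2-fold lower than F0 (2) were 9 of all members (10.8%, against 3.78%) and at least 2-fold higher 0 (2.99% of all genes). In limma, 0 of 19775 genes (0.0%) passed an adjusted p of 0.05 for F12 against F0, and of the members 0 had an unadjusted p under 0.05 (85 of all genes, 0.43%). The smallest member p was 0.149, for ATP5MC1, with an adjusted p of 1. The fit used the same SE of 1.74 for every gene, and its 1 residual degree of freedom came from the F0 pair.

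**Figure D1:**
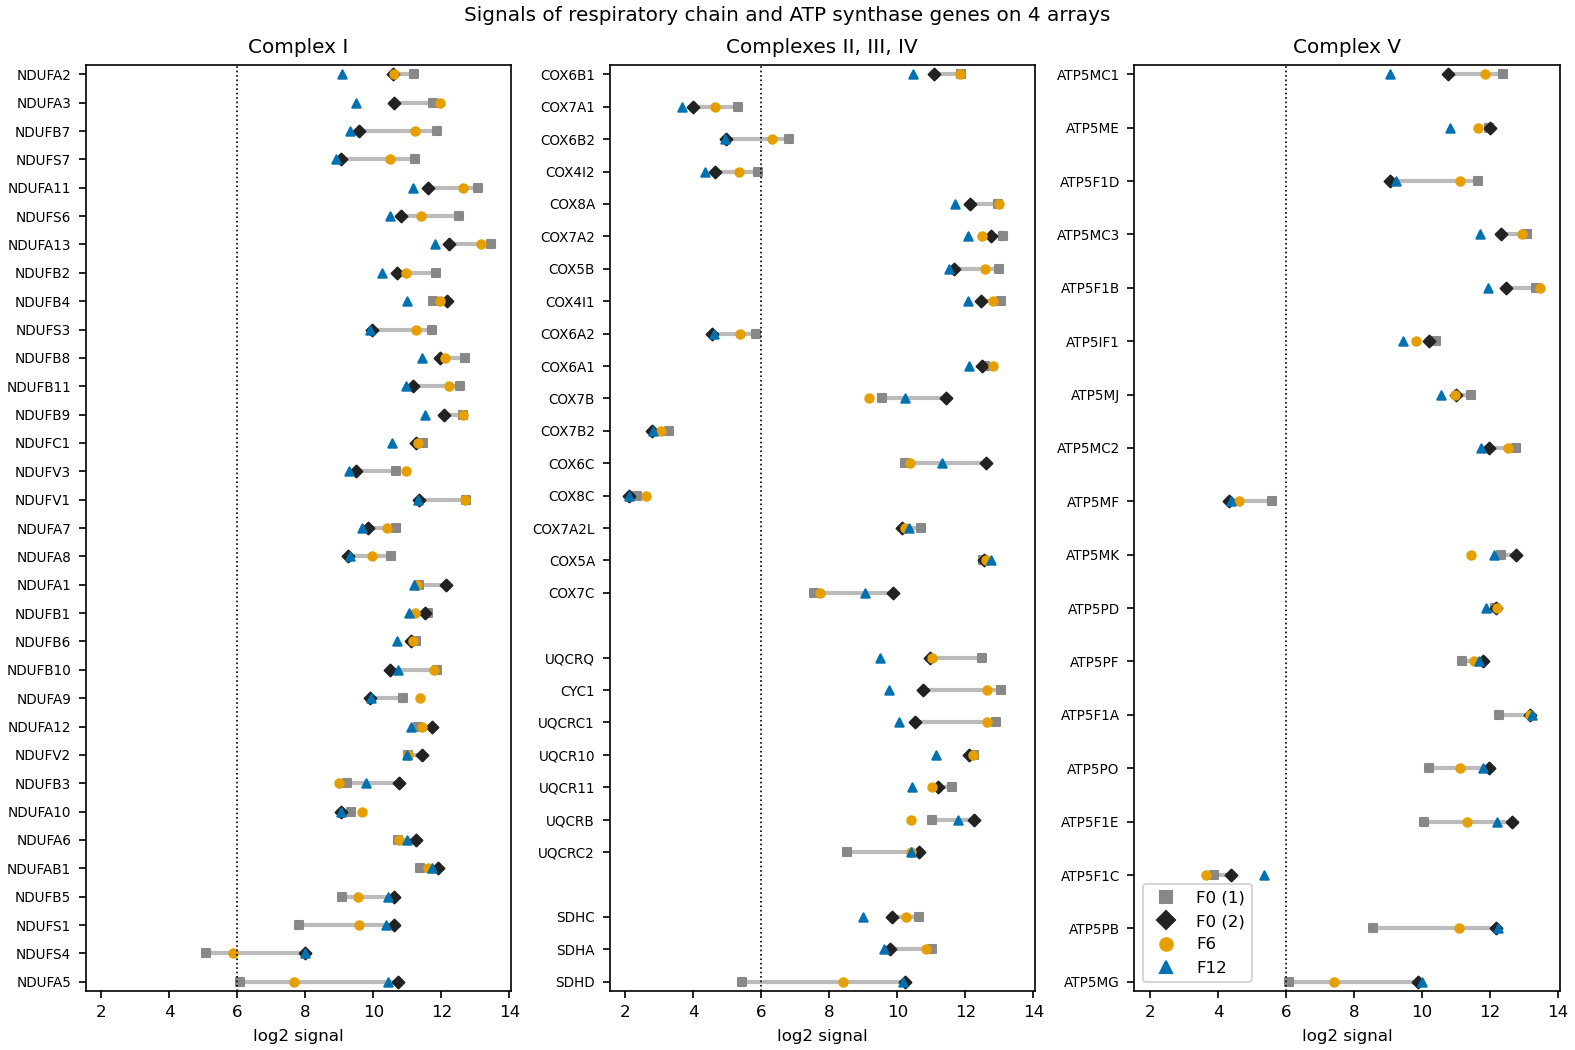
Log2 signal (horizontal axis) of the 78 protein-coding members on the 4 arrays, by complex, ordered by the difference of F12 from the F0 mean. A grey bar joins the 2 F0 arrays and the dotted line marks 6; F12 (triangles) lies left of the bar for 49 of the 78 genes, and the widest bars, such as SDHD from 5.43 to 10.23, show how far the parental arrays differed.

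Complex III held the lowest median of the 5 complexes in F12, at -1.04 against the F0 mean, with all 7 members below F0 (2) and 5 below both arrays. UQCRQ, a small subunit of the complex, read 12.48 on F0 (1), 10.95 on F0 (2), 11.02 on F6 and 9.50 on F12. F6 lay with F0 (2), and F12 was lower than the other 3. The F0 mean was 11.71 ± 1.08 (SD, n = 2), the difference of F12 was -2.21, and its unadjusted p in limma was 0.204. CYC1, the cytochrome c1 that donates electrons to cytochrome c, read 13.06, 10.76, 12.65 and 9.76 in the same order of arrays. It divided the arrays into F0 (1) with F6 and F0 (2) with F12, and F12 stood 1.01 below the lower F0 array. UQCRC1, a core protein on the matrix side, had the same pattern at 12.89, 10.53, 12.64 and 10.05. Its core partner UQCRC2 did not, at 8.51, 10.63, 10.41 and 10.40. With that probeset F0 (1) alone was low and F12 lay between the F0 arrays. Another UQCRC2 probeset (8.19, 9.83, 10.36 and 9.16) also had F12 between them, but nearer the middle, and F6 above both. The small subunits UQCR10 (12.26, 12.11, 12.23 and 11.15) and UQCR11 (11.60, 11.20, 11.02 and 10.43) were lowest on F12 with the probesets used. The F0 arrays nearly coincided for UQCR10. A dimmer UQCR10 probeset had F12 between the F0 arrays (8.12, 7.23, 7.34 and 7.42). UQCRB, a small subunit that binds ubiquinone, read 11.02, 12.25, 10.40 and 11.79 and was lowest on F6.

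In complex I, 23 of 33 members were below both F0 arrays in F12 and 0 above both, with a median of -0.59 against the F0 mean, -0.99 against F0 (1) and -0.29 against F0 (2). The membrane arm, which carries the proton pumps, had 14 of 18 members below both and the matrix arm, where NADH is oxidized, 9 of 14. NDUFA2, a small subunit of the matrix arm, read 11.20, 10.58, 10.61 and 9.08. F0 (2) and F6 were nearly equal and F12 was well below both. The F0 mean was 10.89 ± 0.44 (SD, n = 2), and the unadjusted limma p was 0.299. NDUFA3, of the membrane arm, read 11.76, 10.59, 11.95 and 9.49, with F6 above both F0 arrays and F12 1.10 below both. NDUFB4, also of the membrane arm, read 11.76, 12.17, 11.95 and 10.98, so that 3 arrays lay close together and F12 was apart.

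The catalytic subunits of complex I did not share 1 pattern. NDUFV1, which binds NADH and the flavin, read 12.73, 11.35, 12.68 and 11.30. NDUFS7, which carries the last iron-sulfur cluster before ubiquinone, read 11.23, 9.05, 10.49 and 8.89. Both placed F12 with F0 (2), at most 0.16 below it. NDUFS1, the largest iron-sulfur subunit, ran the opposite way at 7.81, 10.59, 9.58 and 10.36. NDUFA5 was the member of complex I with the largest F12 excess over the F0 mean (2.03) at 6.07, 10.72, 7.66 and 10.42,. In both genes F0 (1) was the lowest array and F12 was within 0.29 of F0 (2).

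Complex II has 3 members here. SDHA, the flavoprotein that oxidizes succinate, read 11.01, 9.79, 10.84 and 9.62, from a probeset whose name marks possible cross-hybridization. SDHC, a membrane anchor, read 10.64, 9.85, 10.25 and 8.98 and was 0.87 below the lower F0 array in F12. SDHD, the other anchor, read 5.43, 10.23, 8.41 and 10.18. The anchors pair in 1 complex, yet with the probesets used SDHC was highest and SDHD lowest on F0 (1). F12 was lower than F0 (2) in both, by 0.87 for SDHC and 0.04 for SDHD. Of 6 measurable SDHC probesets, 4 had F12 below both F0 arrays. Dimmer ones were lowest on F0 (1), at 5.34, 6.57, 6.38 and 5.64, and at 2.91, 6.66, 4.18 and 6.26.

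In complex IV, 10 of 17 members were below both F0 arrays in F12 and 1 above, with a median of -0.60. Among the common forms 6 of 10 were below both. COX4I1, the regulatory subunit that binds ATP, read 13.04, 12.46, 12.80 and 12.09. COX6B1, which faces the intermembrane space, read 11.88, 11.07, 11.85 and 10.47, and COX7A2 read 13.11, 12.75, 12.48 and 12.09. In these 3 genes F12 was the lowest array. COX5A was the exception, at 12.53, 12.56, 12.61 and 12.74, with the F0 arrays almost equal and F12 0.17 above F0 (2). COX6C (10.24, 12.62, 10.38 and 11.30), COX7B (9.55, 11.44, 9.17 and 10.22) and COX7C (7.54, 9.88, 7.74 and 9.05) formed another pattern, with F0 (2) highest, F12 next, and F0 (1) and F6 low. F12 was 1.32, 1.22 and 0.82 lower than F0 (2) in these genes. COX7A2L, which helps join complexes III and IV, read 10.70, 10.15, 10.24 and 10.34.

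The tissue forms of complex IV were near background. COX4I2, the form of lung and hypoxic cells, read 5.90, 4.64, 5.34 and 4.34. The heart and muscle forms COX6A2 (5.85, 4.56, 5.38 and 4.61) and COX7A1 (5.33, 3.98, 4.63 and 3.66) were also under 6 on all arrays, as were the testis-linked forms COX7B2 (3.30, 2.78, 3.04 and 2.83) and COX8C (2.36, 2.12, 2.62 and 2.11). COX6B2, another testis-linked form, read 6.81, 4.96, 6.31 and 4.94. These signals were highest on F0 (1) except for COX8C, and so was the summed signal of the 6 skeletal muscle markers, at 30.2 against 23.6 to 27.7 on the other arrays, with the defining markers ACTA1 and CKM under 6 on each. The summed signals of the endothelial, fibroblast, macrophage, erythroid and adipocyte markers were likewise highest on F0 (1). This order was common among dim genes. The median of F0 (2) minus F0 (1) was -0.6 over all genes and -0.07 over genes with 6 or more on 1 array. The part of any cell type in these values was not tested. The ubiquitous partners COX6A1 (12.58, 12.50, 12.82 and 12.11) and COX8A (12.97, 12.15, 13.00 and 11.70) were well above background on each array and lowest on F12.

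In complex V, 9 of 18 members were below both F0 arrays in F12 and 4 above, the most even split of the complexes. The median was -0.50. Those above were ATP5F1A by 0.06, ATP5PB by 0.08, ATP5MG by 0.12, and ATP5F1C, whose signals were near background. Brighter probesets of ATP5MG and ATP5F1C, all marked for cross-hybridization, did not place F12 above both. The c ring, the rotor through which protons pass, is built from 1 mature protein encoded by 3 genes. ATP5MC1 read 12.38, 10.77, 11.84 and 9.07, ATP5MC2 read 12.76, 11.98, 12.52 and 11.73, and ATP5MC3 read 13.08, 12.32, 12.93 and 11.69. With the probesets used, the 3 genes ranked the arrays alike, from F0 (1) through F6 and F0 (2) to F12. F12 was lower than F0 (2) by 1.71, 0.26 and 0.62. Another ATP5MC3 probeset kept this order (12.82, 12.06, 12.62 and 11.35), while a dimmer one did not (6.23, 9.13, 7.42 and 8.51). For ATP5MC1 the F0 mean was 11.58 ± 1.14 (SD, n = 2) and the difference of F12 was -2.51. ATP5ME, a membrane subunit at the dimer interface, had the closest F0 pair of the 6 members 2-fold below both, at 11.96 and 11.99, with 11.64 on F6 and 10.81 on F12. Its 2 probesets both carry the cross-hybridization mark and both placed F12 lowest.

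The catalytic head of ATP synthase divided. ATP5F1A, the alpha subunit, read 12.27, 13.18, 13.17 and 13.24, while ATP5F1B, the catalytic beta subunit, read 13.34, 12.46, 13.48 and 11.95. Alpha and beta are present in equal numbers in the enzyme, but F12 was the highest array for ATP5F1A and the lowest for ATP5F1B. The central stalk gene ATP5F1D read 11.63, 9.05, 11.13 and 9.24 and ATP5F1E 10.07, 12.64, 11.33 and 12.21. The peripheral stalk, which holds the head still, had F12 within 0.29 of F0 (2) in its 4 genes. ATP5PB read 8.57, 12.16, 11.10 and 12.24, ATP5PO 10.19, 11.97, 11.11 and 11.79, ATP5PF 11.17, 11.79, 11.54 and 11.68, and ATP5PD 12.15, 12.18, 12.20 and 11.89. ATP5IF1, the protein that inhibits ATP hydrolysis by the enzyme, read 10.42, 10.20, 9.81 and 9.45, so both later samples were below both F0 arrays. Another of its probesets placed them likewise (10.07, 9.79, 9.47 and 9.30), while a dimmer one had both above (6.29, 6.30, 6.93 and 6.41).

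**Figure D2:**
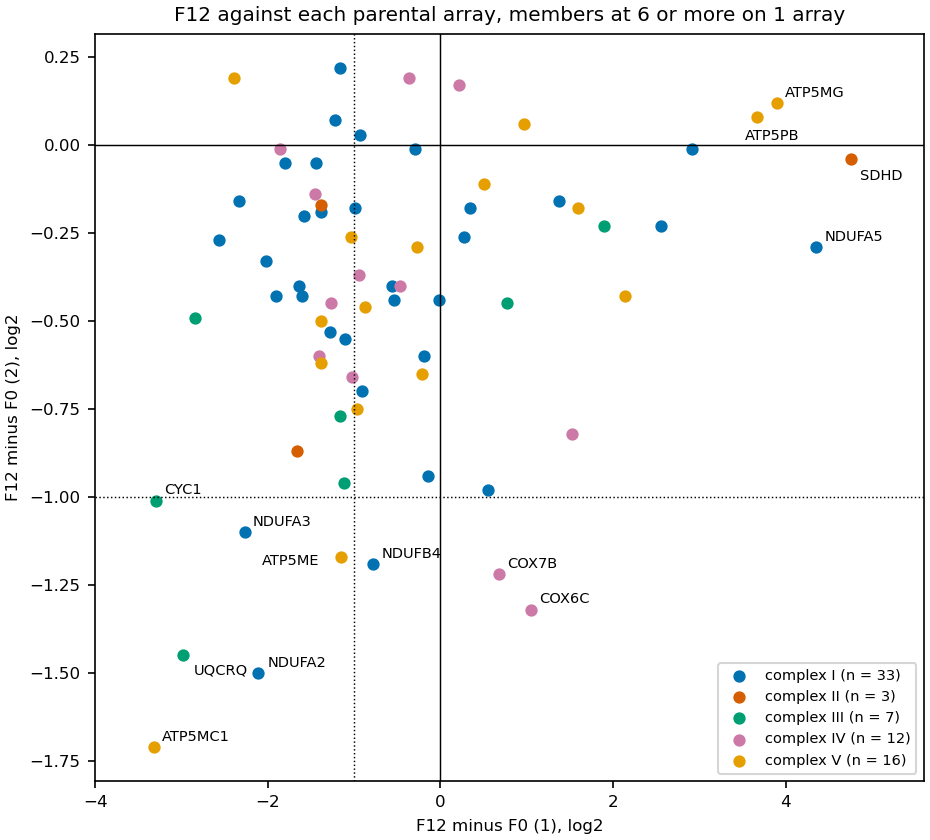
Log2 difference of F12 from F0 (1) (horizontal axis) and from F0 (2) (vertical axis) for the 71 protein-coding members with a signal of 6 or more on 1 array, coloured by complex; dotted lines mark 2-fold. Differences from F0 (1) reach from ATP5MC1 to SDHD, while 62 of the 71 genes lie below 0 on the vertical axis, and the 6 genes 2-fold below both arrays sit at the lower left.

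The comparison of F6 with F0, which shares the F0 arrays with the one above, asks how the genes read after 6 rounds. Members mostly lay between the parental arrays, as most genes did. F6 was between the F0 arrays for 60 of 83 members, below both for 12 (14.5%, against 10.4% of all genes) and above both for 11 (13.3%, against 13.3%). Of the 65 members with a mean of 9 or more, 11 (16.9%) were below both and 9 (13.8%) above both. Among all 2368 such genes, 239 were below both and 505 above both. At least 2-fold below or above both were 0 members, against 0.561% and 0.576% of all genes. The median difference from the F0 mean was 0.05 over members, 0.06 over all genes and 0.26 over genes with a mean of 9 or more. The member median was -0.23 against F0 (1) and 0.29 against F0 (2), so its sign followed the parental array. In limma 0 genes passed (0.0%), 7 of all genes (0.0354%) and 0 members reached an unadjusted p under 0.05. COX7B had the lowest p of the members, 0.448.

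Few members lay far outside the F0 range in F6. ATP5MK, a small membrane subunit of ATP synthase, read 12.32 and 12.76 on the F0 arrays, 11.45 on F6 and 12.11 on F12, and F6 was 0.86 below the lower F0 array, the widest such gap among members in F6. UQCRB stood 0.62 below, ATP5IF1 0.40 below and COX7B 0.37 below. ATP5ME was 0.32 below, and NDUFB1 and COX7A2 were each 0.27 below. NDUFB3, of the complex I membrane arm (9.22, 10.75, 8.98 and 9.77), was 0.24 below. Upward, NDUFA9, which joins the matrix and membrane arms, read 10.87, 9.91, 11.37 and 9.94 and was 0.50 above the higher F0 array in F6. Below both F0 arrays in F6 and in F12 were 8 members (9.6%), and the share of all genes with both placements is not given. Among them were NDUFA1 (11.34, 12.13, 11.29 and 11.19), NDUFB1 (11.60, 11.51, 11.23 and 11.06) and ATP5MJ (11.43, 11.01, 10.96 and 10.55).

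Setting F12 beside F6 shows how the later sample stood against the earlier one. F12 was lower for 61 of 83 members (73.5%), against 63.5% of all genes, and at least 2-fold lower for 29 (34.9%), against 14.7% of all genes and 32.1% of those with a mean of 9 or more. Among the 65 members with a mean of 9 or more, 26 (40.0%) were at least 2-fold lower. At least 2-fold higher were 9 of the 83 members (10.8%, against 20.2%). The median difference was -0.65 over members, -0.29 over all genes and -0.32 over genes with a mean of 9 or more. By complex it was -0.76 in I, -1.22 in II, -1.09 in III, -0.71 in IV and -0.27 in V. With the mean over probesets the medians were -0.63 in II and -0.72 in III, so their order turned. CYC1 (-2.89), ATP5MC1 (-2.77) and UQCRC1 (-2.59) were at the lower end and NDUFA5 (2.77), ATP5MG (2.59) and NDUFS4 (2.13) at the upper end. In the same 6 genes F0 (2) minus F0 (1) was -2.29, -1.61, -2.36, 4.65, 3.77 and 2.94. In limma 0 genes passed (0.0%), with 116 of all genes (0.587%) and 0 members at an unadjusted p under 0.05, and an SE of 2.01 for each gene.

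With both later samples set against both parental ones, limma passed 0 genes (0.0%), and 45 of all genes (0.228%) and 0 members had an unadjusted p under 0.05. UQCRQ had the smallest member p, 0.177, with an adjusted p of 1.

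Subunits encoded in mtDNA mostly read slightly above the F0 mean on both later samples, with medians of 0.37 in F6 and 0.28 in F12. Of 13 such genes 7 had a probeset with 1 symbol, and F12 was above both F0 arrays for 6 of the 7, against 19.5% of all genes, and below both for 0. F6 was above both for 4, against 13.3% of all genes, and F12 was lower than F6 for 4 of the 7. ND2, a proton-pumping subunit of complex I, read 11.87 on each F0 array, 12.92 on F6 and 12.32 on F12, and was the single gene of the 7 at least 2-fold above both, in F6. ND4, another pump subunit, read 12.23, 13.43, 13.83 and 13.75. Its 2 probesets ranked F0 (1), F0 (2), F12 and F6 alike. The catalytic subunit COX1 of complex IV read 12.48, 14.06, 13.25 and 14.29, COX2 read 13.54, 13.81, 14.06 and 13.95, COX3 read 8.44, 8.64, 8.55 and 8.77, and ATP6, the proton channel of ATP synthase, 13.28, 13.41, 13.71 and 13.46. ND6, encoded on the other strand, read 8.52, 7.81, 7.83 and 7.91 and lay between the F0 arrays in both. The excess of F12 over the higher F0 array was 0.45 or less in the 6 genes. Several signals approached the array maxima of 14.43 to 14.58, where differences are compressed, and nuclear copies of mtDNA can share these probes. The probeset of COX3 carries the cross-hybridization mark. With arrays centred on their medians, or with the mean over probesets, 5 of the 7 were above both in F12. The difference between the nuclear and mtDNA groups was not tested.

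**Figure D3:**
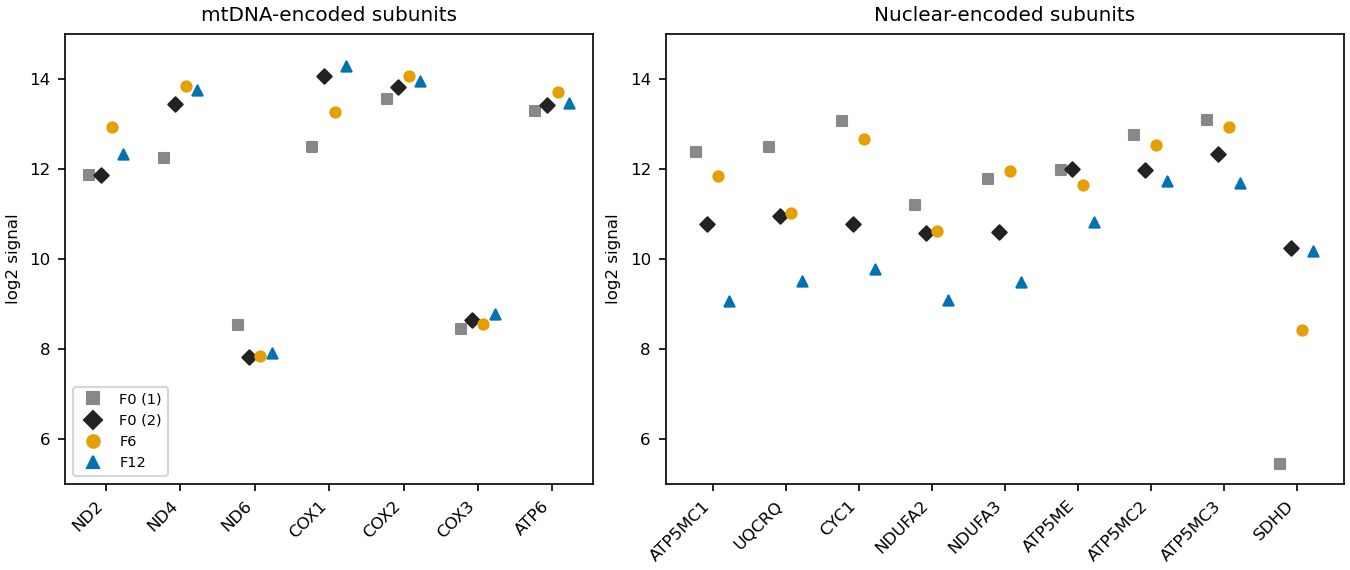
Log2 signals (vertical axis, drawn from 5 to 15) of the 7 measured mtDNA-encoded subunits and of 9 nuclear-encoded ones on the 4 arrays, 1 point per array. The 9 were picked for their values (the 6 genes 2-fold below both F0 arrays, the other c-ring genes and SDHD), so they do not stand for the members as a whole. F12 (triangles) is the lowest array for 8 of the 9 nuclear genes and lies above both F0 arrays for 6 of the 7 mtDNA genes.

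Other mitochondrial genes were read from lists that do not overlap the members. Their counts stand beside 30.4% of all genes below both F0 arrays and 19.5% above both in F12. In F12, below both F0 arrays were 7 of 16 complex I assembly factors, 3 of 4 for complex II, 2 of 6 for complex III, 9 of 24 for complex IV and 1 of 4 for complex V, and above both were 4, 0, 0, 4 and 1. PET100, needed to assemble complex IV, read 10.32, 9.70, 8.95 and 8.41, at least 2-fold below both in F12. So did SDHAF4 (6.17, 5.91, 5.96 and 4.81). The complex I factor NDUFAF8 read 10.13, 9.21, 7.91 and 8.56, at least 2-fold below both in F6. Among 15 genes of electron carriers and ubiquinone synthesis 3 were below both in F12 and 2 above. ETFB, the beta subunit of the electron transfer flavoprotein, read 11.96, 10.23, 11.10 and 8.98, at least 2-fold below both in F12.

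Against the same 30.4% and 19.5%, of 16 measured genes of the citric acid cycle and its entry 8 were below both F0 arrays in F12 and 4 above, and of 75 mitochondrial ribosomal protein genes 38 were below and 12 above, with 0 at least 2-fold either way. MRPS18C read 9.95, 9.81, 8.43 and 9.71, at least 2-fold below both in F6. Glycolysis genes had 14 of 16 below both and 0 above, with a median of -1.12 against -0.65 for the members, and 4 were at least 2-fold below both. These were PKM, pyruvate kinase (10.97, 8.19, 9.78 and 6.22), ALDOA, aldolase (13.82, 12.21, 13.51 and 10.22), PGK1, phosphoglycerate kinase (12.70, 12.14, 12.48 and 10.15), and TPI1, triosephosphate isomerase (13.74, 12.63, 13.47 and 11.26). Of the citric acid cycle genes, malate dehydrogenase MDH2 read 12.60, 11.82, 12.81 and 11.33, above both F0 arrays in F6 and below both in F12. Among 9 regulators of mitochondrial biogenesis 2 were below both in F12 and 1 above. Of these, factors tied to the motifs above and 1 coactivator are given, chosen after their values were seen. YY1 read 7.83, 10.81, 9.03 and 10.58, and GABPB1 5.14, 8.13, 6.71 and 8.04. NRF1 read 6.57, 6.47, 6.92 and 6.26, GABPA, an ETS factor, 3.79, 8.73, 4.96 and 8.46, and the coactivator PPARGC1A was under 4 on all arrays (3.84, 3.15, 3.99 and 3.26). Of the 10 mtDNA maintenance and expression genes 3 were below both and 1 above, of the 7 hypoxia-linked mitochondrial genes 0 and 3, and of the 9 mitochondrial carriers 4 and 2. No test of a difference between these lists and the members was run.

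**Figure D4:**
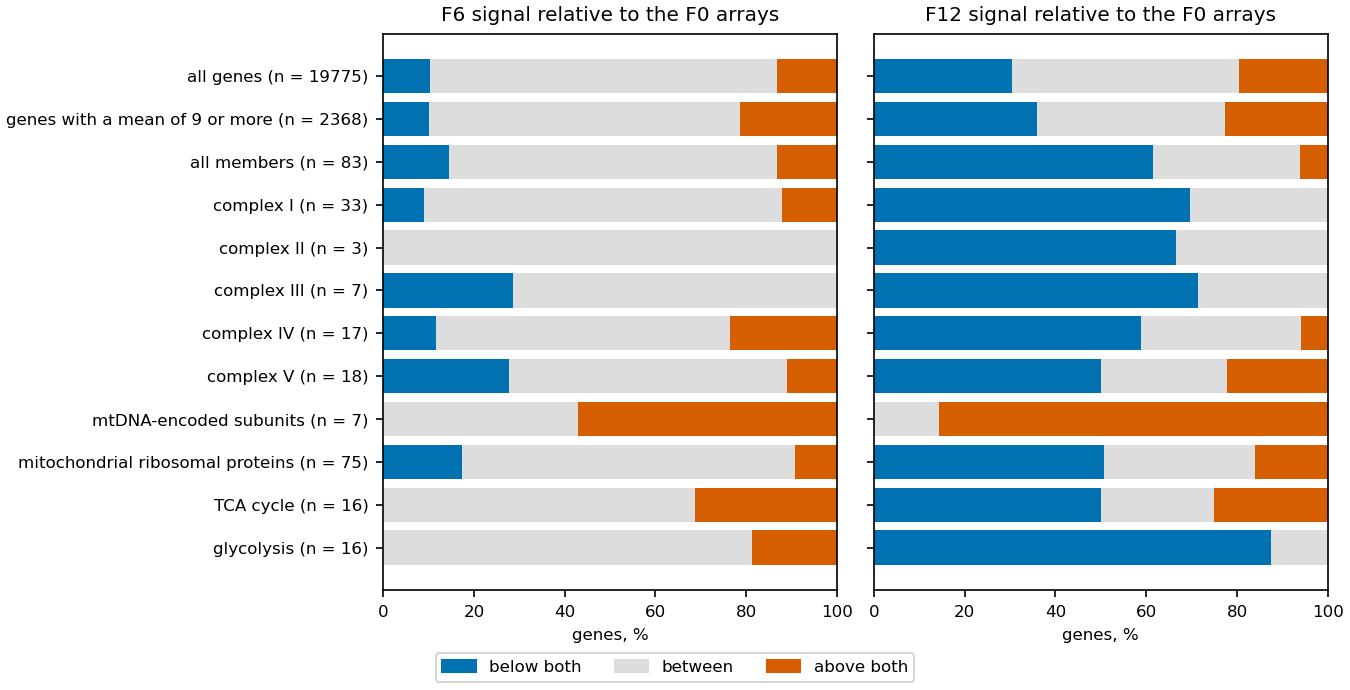
Share of genes (horizontal axis, %) whose signal in F6 (left) and F12 (right) lay below both F0 arrays, between them or above both, for all genes, bright genes, the members by complex, and 4 other lists. In F12 the blue share is 61.4% for members against 30.4% for all genes, glycolysis has 14 of 16 genes there, and the mtDNA-encoded genes have 0 of 7.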

How the data were processed

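Messenger RNA was measured on 4 arrays, 2 of F0 and 1 each of F6 and F12. The authors deposited log2 signals, 1 for each probeset on each array, made with RMA and affy per the submitters' processing notes. RMA corrects background, quantile-normalizes probes between arrays and summarizes them per probeset, which makes arrays alike in distribution. No version of either is stated in the sources at hand. Such values carry no read depth, and precision is limited by the number of arrays.

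The platform annotation, which can be old, named 1 gene for 41091 of 54613 probesets, several for 1801 and none for 11721. The brightest probeset on average stood for each gene, setting aside names ending in _x_at, which mark possible cross-hybridization, wherever another existed. For 2 members, SDHA and ATP5ME, only such probesets existed. The 83 members had 158 probesets. Genes were named by complex from the largest and smallest differences, from those 2-fold beyond both F0 arrays, and from a set of catalytic subunits and paired forms, some of which were not analysed here. Further members given with values were chosen after these were seen. Members, lists and tests were chosen with earlier results of these data known.

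Groups were compared in R 4.3.3 by lmFit and eBayes of limma 3.58.1, with Benjamini-Hochberg adjustment over 19775 genes and a threshold of 0.05, as 3 groups and also with F6 and F12 as 1 group. In the 3-group fit the F0 pair alone gives the error, and F6 and F12 are assumed to vary like it. The fit was tested on simulated data. Groups with 1 array were otherwise described by medians and by counts below or above both F0 arrays, with the share of all genes beside them; the counts without a fold limit were added after seeing the data. Alternatives were the mean of probesets, _x_at probesets, a minimum of 6, 2 centrings, each F0 array alone and an adjustment for position between the F0 arrays.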

Additional observations from a re-analysis of the deposited data

Results flagged for a closer look

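In 7 members with a signal of 6 or more, F6 lay above both F0 arrays and F12 below both, so the later and earlier samples stood on opposite sides of the parental pair. F12 minus F6 was -2.47 for NDUFA3 and -1.66 for NDUFV3, both of complex I, and -0.61 for NDUFA10, a membrane-arm subunit of the same complex. It was -1.52 for ATP5F1B, the catalytic subunit of ATP synthase, and -0.31 for ATP5PD of its peripheral stalk. In complex IV it was -1.30 for COX8A and -0.71 for COX6A1. The gaps to the F0 arrays were often small, as for ATP5PD, where the F0 arrays had 12.15 and 12.18, F6 had 12.20 and F12 had 11.89. The genes were picked by the order of their arrays alone, and lying on opposite sides of the F0 pair was not tested. Of all genes, 13.3% were above both F0 arrays in F6 and 30.4% below both in F12. The share of all genes with both placements is not given, so the 7 members cannot be set against it. F12 minus F6 itself was tested in limma, where 0 genes passed an adjusted p of 0.05, 116 genes had an unadjusted p under 0.05, and none of these 116 is a member.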

How the results depend on the processing

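The counts and medians of F6 and F12 depended on the parental array. The member median of F12 against F0 was -0.65, between -0.99 and -0.32 with 1 F0 array left out, and below 0 in each alternative. Without 1 F0 array, members at least 2-fold lower in F12 numbered 9 (10.8%, all genes 3.78%) against F0 (2) and 41 (49.4%, all genes 32.0%) against F0 (1), and at least 2-fold higher 0 (all genes 2.99%) and 13 (15.7%, all genes 25.0%). In F6, in place of 0, those lower numbered 14 (16.9%, all genes 20.3%) and 2 (2.41%, all genes 4.13%), and those higher 18 (21.7%, all genes 15.8%) and 7 (8.43%, all genes 17.1%). Below the remaining array in F6, in place of 12, were 31 (37.3%, all genes 34.8%) and 53 (63.9%, all genes 62.2%). These shares were near those of all genes, while 43.3% and 45.4% of genes with a mean of 9 or more were lower. In F12, in place of 51, members below the remaining array numbered 67 (80.7%, all genes 45.9%) and 62 (74.7%, all genes 64.9%). Adjusted for where F6 lies between the F0 arrays over all genes, 44 members (53.0%, all genes 51.9%) read below the fitted value, 3 of them (3.61%, all genes 3.21%) at least 2-fold, and 1 (1.2%, all genes 3.89%) at least 2-fold above. Of genes with a mean of 9 or more, 33.4% read below the fitted value. With arrays centred on genes with a mean of 9 or more, an alternative chosen after seeing the data, 3 members were at least 2-fold below both in F12 and 1 above, ATP5F1C, whose signals are near background. The matching 2-fold shares of all genes are not given for that alternative. The complex II median in F6 (0.44) reversed to -0.17 against F0 (1) alone and was 0.40 against F0 (2) alone, and its median of F12 minus F6 (-1.22) was -0.63 with the mean of probesets. In limma, the mean of probesets passed 1 gene for F12 against F0, BEX1, which is no member. At an unadjusted p under 0.05 the 4 fits had 7, 85, 116 and 45 genes. The fits with 3 groups could not be run without an F0 array, which leaves no residual degree of freedom. No paired analysis was possible because F6 and F12 have 1 array each and share fewer than 2 replicate numbers with F0. The cause of these changes was not tested beyond what leaving out an array itself shows.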

Other observations

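Probesets of 1 gene ranked the arrays in opposite ways. ATP5MG, a membrane subunit of ATP synthase, had 6.10 and 9.87 on F0 (1) and F0 (2), 7.41 on F6 and 9.99 on F12 with its single probeset that lacks the cross-hybridization mark. Its 3 cross-hybridizing probesets were highest on F0 (1), at 13.06, 12.45, 12.62 and 12.53 for 1 of them. ATP5F1C, the gamma subunit of the rotor, was near background with its unmarked probeset (3.88, 4.38, 3.65 and 5.34), while a cross-hybridizing one read 8.63, 11.73, 10.99 and 11.49. Of 27 members with several measurable probesets, 16 were below both F0 arrays in F12, and in 10 of these each measurable probeset was.

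The members that encode no protein were not uniform. The pseudogene ATP5MC2P1 read 8.17, 6.23, 7.28 and 5.66 and was highest on F0 (1) and lowest on F12, like ATP5MC2. The non-coding RNA NDUFV1-DT, from the start region of NDUFV1, read 7.15, 6.42, 7.25 and 6.84. COX6A1P1, NDUFB2-AS1 and NDUFV2-AS1 were near background on most arrays.

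Across 62 protein-coding members with a promoter window and a signal of 6 or more, the G+C share of the 250 bases before the start had a Pearson r of -0.35 and a Spearman rho of -0.27 with F0 (2) minus F0 (1). Across 9700 genes the values were -0.06 and -0.05. For the same members they were 0.18 and 0.2 with F12 minus F0 (2), the opposite sign. With F6 minus F0 (1) they were -0.12 and -0.04, so the parental difference gave the largest values. These are descriptions across genes that share the same arrays, and genes are not independent replicates.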
